A study of Homo sapiens with 6 samples.

Results

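The transcripts described here are those of 40 genes that sense DNA damage, halt the cell cycle or repair the lesion. They were listed by name in 7 roles, namely the MRN complex that binds broken ends, checkpoint kinases and their adaptors, homologous recombination, the Fanconi anaemia pathway, the RecQ helicases, mismatch repair and end joining. Of the 19775 genes with a probe set naming them alone, 35 were members. ATRIP and PMS2 were seen only by probe sets that also name another gene, and 3 further members had no probe set naming them in the annotation used, so these 5 are not analysed here. Each gene was read by its brightest probe set, and 34 of the 35 measured members passed the filter on low values, which kept genes whose mean log2 signal over all arrays was above 5.83. The exception was XRCC3, a recombinase paralogue, which averaged 3.89 ± 1.73 on the RNF43 siRNA arrays and 4.27 ± 1.76 on the control arrays (SD, n = 3 each).

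The 6 Affymetrix HG-U133 Plus 2.0 arrays measured RNA taken 48 h after transfection from cells labelled HepG2, a line that came from a human hepatic tumour. In the group called siRNF43 the cells received an siRNA against RNF43, a membrane ubiquitin ligase that lowers Wnt signalling by clearing Frizzled receptors, and in the group called siNC a negative control siRNA. Each group had 3 arrays, called biological replicates, and 1 siRNA sequence was used per group. No label gives separate cultures for the replicates, so the p-values speak only of spread among these arrays, and some of that spread may be technical. Values are log2 MAS5 signals, and every difference is siRNF43 minus siNC.

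The 2 reagents that define the comparison are shown by their antisense strands, written 5′ to 3′ as the labels give them, with bases 2 to 8, the seed, in capitals. Where these strands match transcripts was not analysed here.
RNF43 siRNA antisense: aUAAUAGCuuucuguucugtt
Negative control siRNA antisense: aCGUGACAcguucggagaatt

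The labels were first set against the data. RNF43 mRNA, for which 1 probe set named the gene alone, ran opposite to the siRNA named on the arrays. It had log2 signals of 8.19, 8.22 and 8.41 on the siRNF43 arrays and 7.65, 7.79 and 7.45 on the siNC arrays, so every array labelled with its siRNA lay above every control array (log2 difference 0.64, SE 0.14, limma adjusted p = 0.0098; exact two-sided permutation p = 0.1, the smallest that 3 against 3 arrays allow). When both arrays numbered 3 were dropped, the difference was 0.48 and did not pass (limma adjusted p = 0.0534). All directions below are therefore those of the arrays labelled siRNF43 and no fall of RNF43 mRNA was measured behind them. The liver label also met little signal. Of 9 measured hepatocyte markers, 8 lay below the filter, with mean log2 signals of 4.24 on siRNF43 arrays and 4.19 on siNC arrays for ALB (albumin), 5.09 and 5.09 for TTR and 2.97 and 3.94 for FGB. AFP (alpha-fetoprotein) was the marker above it, at 6.41 ± 0.26 on siRNF43 arrays and 7.01 ± 0.11 on siNC arrays (SD, n = 3 each). Of 8 fibroblast and stellate cell markers, 5 lay above the filter, and COL1A2, PDGFRB and THY1 lay below it. The brightest was LUM (lumican), at 13.17 ± 0.11 on siRNF43 arrays and 13.36 ± 0.06 on siNC arrays. LUM was not called (limma adjusted p = 0.0926). Of these 5, 3 were called lower (COL3A1, DCN and ACTA2), beside 11.1% of all tested genes. The linear signal of the whole fibroblast list was also summed, and LUM gave the largest part of it. On the log2 scale the sum was 13.51 to 13.64 on siRNF43 arrays and 13.84 to 13.86 on siNC arrays. The part of these markers in the differences below was not tested. The 5 measured macrophage and leukocyte markers lay below the filter, as did 4 of 5 endothelial markers.

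Cells answer a broken or stalled DNA strand in steps. The MRN complex and single-stranded DNA recruit the kinases ATM and ATR, which phosphorylate CHEK2 and CHEK1 and stop the cell cycle, and the break is then closed by recombination with the sister chromatid or by direct end joining. Crosslinks are handled by the Fanconi anaemia proteins, and copying errors by mismatch repair. Some of these genes, certain recombination and Fanconi genes among them, are transcribed mainly around S phase.

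Of the 34 tested members, 5 were higher and 2 lower on siRNF43 arrays in limma's test with Benjamini-Hochberg adjustment over all 11853 tested genes (threshold 0.05). The 5 were EXO1, RAD51AP1, BARD1, MSH6 and FANCL, and the 2 were RAD50 and ATM. This is 20.6% of the members, against 22.6% of all tested genes. By direction it is 14.7% higher, against 11.5% of all tested genes, and 5.88% lower, against 11.1%. The share of members called in either direction was thus close to that of all tested genes in this fit. Other settings moved both shares. In the upper 30% of probe sets 5 of 31 members were higher and 2 lower, beside 2545 of 8817 genes called. With the replicate number added to the fit, 11 of 34 members were higher and 3 lower, beside 3908 of 11853 genes called. The median difference over the members was 0.09, with 22 above 0 and 12 below, and over all tested genes it lay at 0.00. The median member, set to its own siNC mean, stood at 0.11, 0.09 and 0.10 on the siRNF43 arrays and at -0.01, -0.02 and 0.02 on the siNC arrays. The siNC values centre near 0 because each member was set to that mean. The groups did not overlap for 14 members, 10 of them higher and 4 lower, which is 41.2% of members against 38.9% of all tested genes (19.1% higher and 19.8% lower). Because whole cell populations were measured, fewer cells of a type and less RNA per cell cannot be told apart.

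The count of risen members depended on single arrays. Without siNC replicate 1 it was 1, and without siNC replicate 2 or siRNF43 replicate 2 it was 2. Without siRNF43 replicate 1 it was 3. Over all 11853 tested genes the count called higher was lower as well under these omissions, at 947 without siNC replicate 1, 948 without siNC replicate 2, 875 without siRNF43 replicate 2 and 1050 without siRNF43 replicate 1, against 1364 with all arrays. The count of fallen members was 1 without siNC replicate 1, siNC replicate 2 or siRNF43 replicate 3, where 882, 891 and 1251 of all tested genes were called lower, against 1320 with all arrays. RAD50 and EXO1 were the members called in all 17 alternatives.

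**Figure D1:**
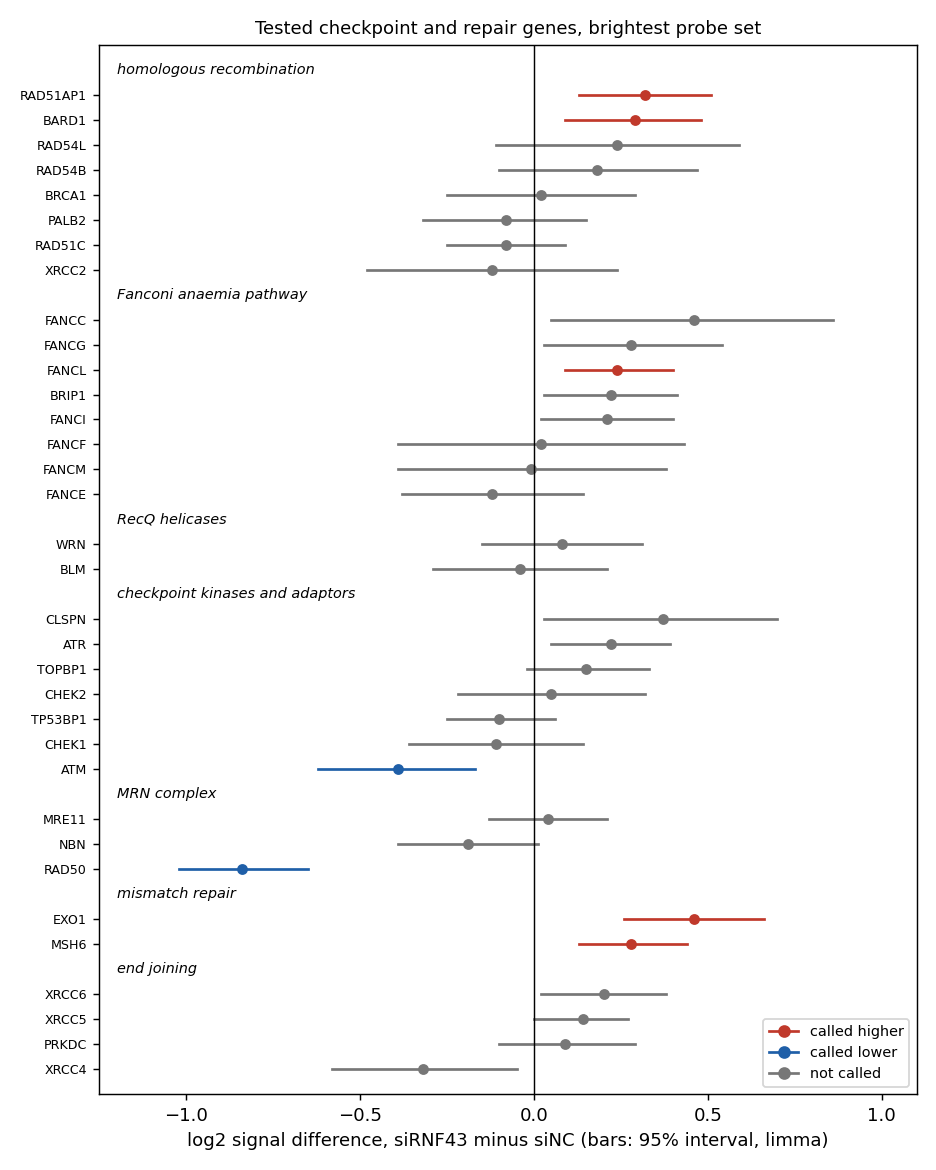
Log2 signal difference, siRNF43 minus siNC, of the 34 tested members on their brightest probe sets, grouped by role; bars are limma's 95% confidence intervals and colour gives the call. RAD50 lies farthest from 0 at -0.84. An unadjusted limma p under 0.05 was found for 16 of the 34 members and for 4128 of all 11853 tested genes.

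RAD50, the ATPase that tethers broken ends in the MRN complex, fell and had the largest difference of the 34 tested members. Its log2 signal was 10.02, 9.83 and 9.98 on siRNF43 arrays and 10.76, 10.85 and 10.74 on siNC arrays. Every siRNF43 value lay well below every siNC value. The difference was -0.84 (SE 0.08, 95% confidence interval -1.02 to -0.65), or 1.79-fold lower, with a limma adjusted p of 7.53e-05. Both other tested RAD50 probe sets were lower too, one by -0.53 with a call of its own (limma adjusted p = 0.0122 over all probe sets) and one by -0.28 without (0.353). Over the alternatives RAD50's difference ranged from -0.88 to -0.53.

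The partners of RAD50 in the same complex did not pass. MRE11, the nuclease, had 10.61, 10.67 and 10.76 on siRNF43 arrays and 10.68, 10.62 and 10.62 on siNC arrays, groups that overlap, with a difference of 0.04 and a 95% confidence interval of -0.13 to 0.21. NBN, the subunit that recruits ATM, had 11.06, 11.26 and 11.21 on siRNF43 arrays and 11.38, 11.51 and 11.21 on siNC arrays. Its difference was -0.19 (SE 0.09, limma adjusted p = 0.171). NBN passed in 3 of the 16 alternatives that tested it, among them without siNC replicate 3 (-0.27, limma adjusted p = 0.0473). Its 3 other tested probe sets gave -0.13, -0.16 and 0.02, and 0 of them passed. Whether RAD50 differs from its partners in response was not tested.

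Among the checkpoint genes ATM, the kinase activated by double-strand breaks, was lower. It had 9.31, 9.28 and 9.07 on siRNF43 arrays and 9.68, 9.66 and 9.50 on siNC arrays, with no overlap. The difference was -0.39 (SE 0.10, limma adjusted p = 0.0184), or 1.31-fold lower. The 3 other tested ATM probe sets were lower by -0.69, -0.34 and -0.28, and 0 of them passed. The call was lost without siNC replicate 1 (limma adjusted p = 0.0756), siNC replicate 2 (0.0675) or siRNF43 replicate 3 (0.0512). Averaging all 6 ATM probe sets, of which 2 lay below the filter, gave a difference of 0.39 that did not pass (0.273).

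ATR, the kinase that answers stalled replication forks, did not pass. Its values were 11.33, 11.28 and 11.14 on siRNF43 arrays and 10.95, 11.07 and 11.07 on siNC arrays, without overlap, and the difference was 0.22 (SE 0.08, limma adjusted p = 0.0695). It passed in 4 of the 17 alternatives, among them without siRNF43 replicate 3 (0.27, limma adjusted p = 0.0351). A second ATR probe set gave 0.23 (limma adjusted p = 0.154).

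The groups overlapped for the kinases that ATM and ATR activate. CHEK1 had a difference of -0.11 (95% confidence interval -0.36 to 0.14) and CHEK2 one of 0.05 (-0.22 to 0.32). Of the adaptors, CLSPN, which presents CHEK1 to ATR, had 0.37 (limma adjusted p = 0.11) and was above 0 on its 3 tested probe sets. TOPBP1, an activator of ATR, had 0.15 (limma adjusted p = 0.203) and passed in 1 of the 17 alternatives. TP53BP1, which steers breaks towards end joining, had -0.10 (limma adjusted p = 0.369), with groups that did not overlap.

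**Figure D2:**
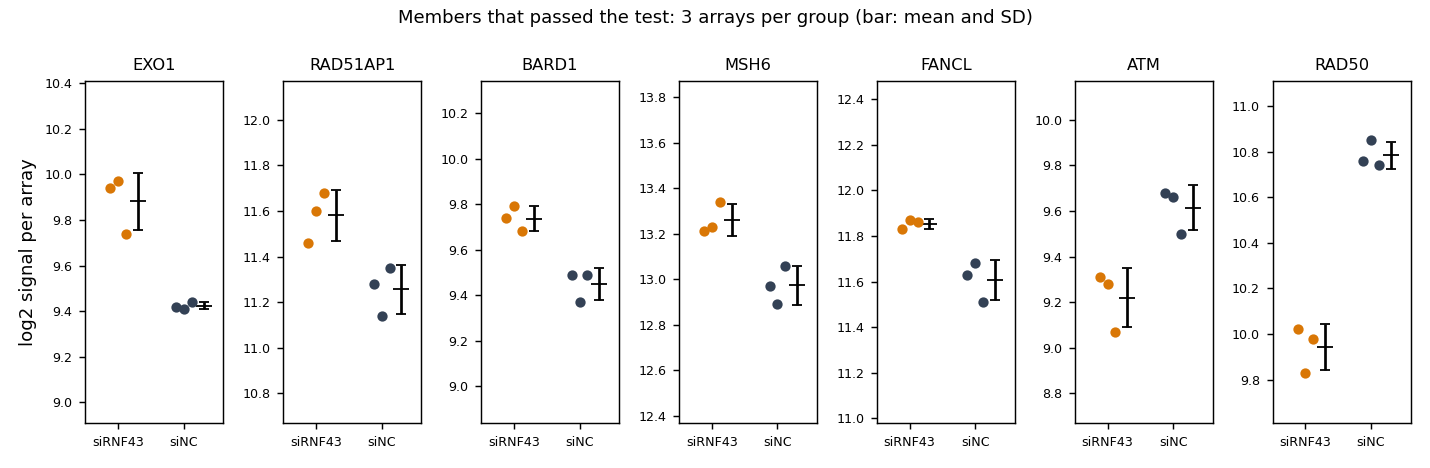
Log2 signal on each of the 3 siRNF43 and 3 siNC arrays for the 7 members that passed, with the mean and SD of each group beside its points; each panel spans the same range of log2 units around its own mean. The groups separate in every panel, by the widest gap in RAD50.

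In homologous recombination 2 of 8 tested members rose and 0 fell, beside 11.5% of all tested genes called higher and 11.1% called lower. RAD51AP1, which binds the strand-exchange recombinase and helps it pair DNA, had 11.46, 11.60 and 11.68 on siRNF43 arrays and 11.28, 11.14 and 11.35 on siNC arrays. The groups were apart by a gap smaller than the range within either. Its difference was 0.32 (SE 0.08, limma adjusted p = 0.0206), or 1.25-fold higher. The RAD51AP1 call was lost without siNC replicate 1 (limma adjusted p = 0.0558), siNC replicate 2 (0.0905), siRNF43 replicate 2 (0.0751) or siRNF43 replicate 3 (0.057), and without the intensity trend of the variance model (0.0671).

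BARD1, the RING finger partner that BRCA1 needs to act as a ubiquitin ligase, had 9.74, 9.79 and 9.68 on siRNF43 arrays and 9.49, 9.37 and 9.49 on siNC arrays. The groups did not overlap, and the difference was 0.29 (SE 0.09, limma adjusted p = 0.0375), or 1.22-fold higher. A dimmer BARD1 probe set gave 0.52 (limma adjusted p = 0.0309 over all probe sets) and the dimmest 0.32 (0.392). The call was lost without siNC replicate 1 (limma adjusted p = 0.0792), siNC replicate 2 (0.138), siRNF43 replicate 1 (0.0929) or siRNF43 replicate 2 (0.128). It was also lost when its probe sets were averaged (0.37, limma adjusted p = 0.0842) and with no filter on low values (0.0526).

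BRCA1, the scaffold that BARD1 binds, did not pass. It had 9.39, 9.35 and 9.19 on siRNF43 arrays and 9.14, 9.55 and 9.19 on siNC arrays, groups that overlap, with a difference of 0.02 and a 95% confidence interval of -0.25 to 0.29. PALB2, which links BRCA1 to the loading of the recombinase, had -0.08 (95% confidence interval -0.32 to 0.15), and RAD51C, a recombinase paralogue, also -0.08 (-0.25 to 0.09). RAD54L, a motor protein that remodels the paired strands, had the smallest p among the recombination members that did not pass. It had 8.81, 8.49 and 8.40 on siRNF43 arrays and 8.60, 8.27 and 8.10 on siNC arrays, with a difference of 0.24 (limma adjusted p = 0.311). RAD54B, its relative, had 0.18 and XRCC2, another recombinase paralogue, -0.12.

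Of 8 tested Fanconi anaemia members 1 rose (12.5%, against 11.5% of all tested genes) and 0 fell (against 11.1%). Differences above 0 numbered 6, beside 5870 of all 11853 tested genes. The median was 0.21, beside 0.0 over all tested genes. The member that rose was FANCL, the ubiquitin ligase subunit of the core complex. It had 11.83, 11.87 and 11.86 on siRNF43 arrays and 11.63, 11.68 and 11.51 on siNC arrays, without overlap, and differed by 0.24 (SE 0.07, limma adjusted p = 0.0289), or 1.18-fold. The FANCL call was lost without siNC replicate 1 (limma adjusted p = 0.0769), siNC replicate 3 (0.0729), siRNF43 replicate 1 (0.0602), siRNF43 replicate 2 (0.092) or siRNF43 replicate 3 (0.0555), without both arrays numbered 3 (0.19, limma adjusted p = 0.0553) and without the intensity trend of the variance model (0.074).

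FANCI, a protein that FANCL ubiquitinates, depended on the probe set. On the brightest it had 11.67, 11.80 and 11.92 on siRNF43 arrays and 11.45, 11.66 and 11.66 on siNC arrays, a difference of 0.21 that did not pass (limma adjusted p = 0.115). Both other FANCI probe sets differed by 0.46 and passed (limma adjusted p = 0.0188 and 0.00628 over all probe sets). FANCI passed in 2 of the 17 alternatives, among them averaged over its probe sets, at 0.38 (limma adjusted p = 0.00534).

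BRIP1, a helicase that works with BRCA1, had 10.04, 10.10 and 9.91 on siRNF43 arrays and 9.72, 9.84 and 9.84 on siNC arrays. These groups did not overlap, and the difference of 0.22 did not pass (limma adjusted p = 0.0999), though it passed in 3 of the 17 alternatives. The core complex members FANCC and FANCG had 0.46 (SE 0.18, limma adjusted p = 0.103) and 0.28 (SE 0.11, limma adjusted p = 0.104). FANCC passed in 4 of the 17 alternatives, among them without siNC replicate 3 (0.67, limma adjusted p = 0.0111), and FANCG in 1. Over the alternatives FANCC's difference ranged from 0.07 to 0.67. Its other tested probe set gave 0.07 and did not pass (limma adjusted p = 0.906 over all probe sets). FANCF had 0.02, FANCM, the translocase that anchors the core complex, -0.01, and FANCE -0.12, each with a confidence interval that included 0. The RecQ helicases, which unwind recombination intermediates, had 0.08 for WRN (95% confidence interval -0.15 to 0.31) and -0.04 for BLM (-0.29 to 0.21). WRN had 8.95, 9.05 and 8.84 on siRNF43 arrays and 8.91, 8.80 and 8.90 on siNC arrays.

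Both measured mismatch repair members rose, beside 11.5% of all tested genes. EXO1, an exonuclease that removes the mismatched strand and also trims broken ends, had 9.94, 9.97 and 9.74 on siRNF43 arrays and 9.42, 9.41 and 9.44 on siNC arrays. The 3 siNC values lay within an SD of 0.02, below every siRNF43 value. The difference was 0.46 (SE 0.09, 95% confidence interval 0.26 to 0.66, limma adjusted p = 0.00519), or 1.38-fold, and ranged from 0.42 to 0.54 over the alternatives. EXO1 has a single probe set.

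MSH6, a subunit of the complex that recognises mismatches, had 13.21, 13.23 and 13.34 on siRNF43 arrays and 12.97, 12.89 and 13.06 on siNC arrays, without overlap. It differed by 0.28 (SE 0.07, limma adjusted p = 0.0133), or 1.22-fold. Its second tested probe set gave 0.11 and did not pass (limma adjusted p = 0.413 over all probe sets). The MSH6 call was lost without siNC replicate 1 (limma adjusted p = 0.0534) or siNC replicate 2 (0.0673) and without the intensity trend (0.0575), and the mean of all 4 MSH6 probe sets, of which 2 lay below the filter, gave -0.37 (0.585).

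End joining held 0 calls among 4 tested members, by limma over genes, with an unadjusted p under 0.05 for 3 of them. Of all 11853 tested genes, 4128 had an unadjusted p under 0.05. XRCC4, the scaffold of the ligase that seals broken ends, had 7.99, 8.0 and 7.93 on siRNF43 arrays and 8.37, 8.26 and 8.25 on siNC arrays. Its groups did not overlap, and the difference of -0.32 did not pass (SE 0.12, limma adjusted p = 0.0824). XRCC4 passed in 1 of the 16 alternatives that tested it. Its other tested probe sets gave -0.53 and 0.20. The Ku subunits, which bind the free ends, had 0.20 for XRCC6 (limma adjusted p = 0.106) and 0.14 for XRCC5 (limma adjusted p = 0.135). Each passed in 1 of the 17 alternatives. A second XRCC5 probe set differed by 0.41 and passed (limma adjusted p = 0.00258 over all probe sets). PRKDC, the kinase that Ku recruits, had 0.09 (95% confidence interval -0.10 to 0.29).

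The 83 probe sets naming a member served as a further check, and 66 of them passed the filter. Of these, 8 were higher and 3 lower with p adjusted over 22661 tested probe sets, or 16.7% against 17.7% of all tested probe sets. No member was called higher by one probe set and lower by another. In this wider adjustment the brightest BARD1 probe set did not pass (limma adjusted p = 0.0526), and FANCI and XRCC5 gained calls through dimmer probe sets.

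**Figure D3:**
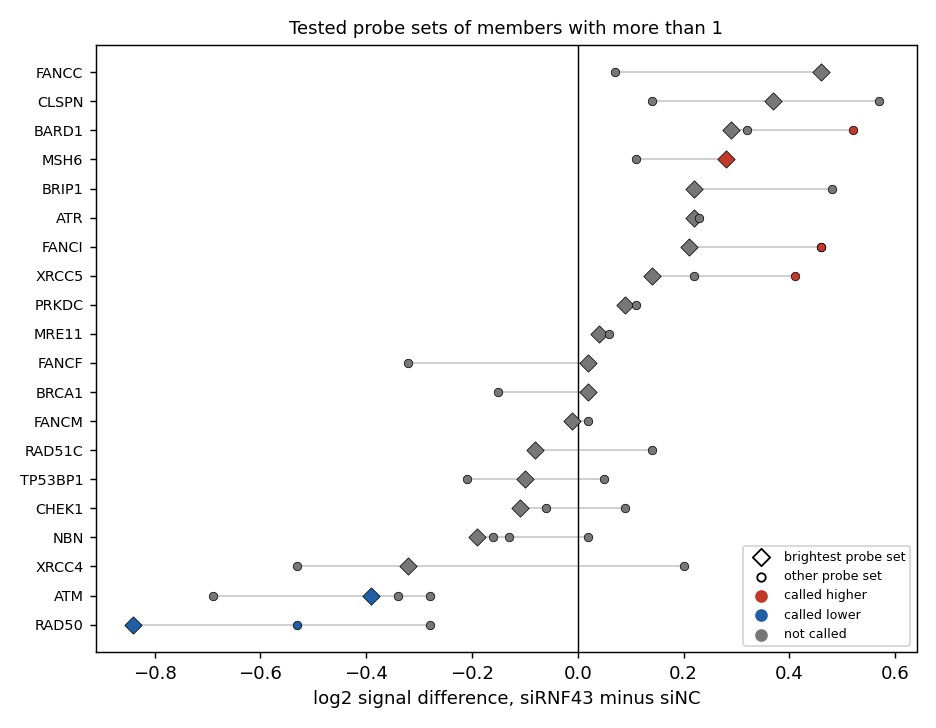
Log2 signal difference, siRNF43 minus siNC, of each tested probe set for the 20 members with more than 1, the brightest as a diamond; colour gives the call with p adjusted over all tested probe sets. All tested probe sets of RAD50 and ATM lie below 0, and those of BARD1, FANCI and CLSPN above it.

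Of 92 other listed genes of the same pathways, 85 were measured and 83 tested, and 7 rose and 4 fell, 13.3% in all against the 22.6% of all tested genes. The median difference was -0.01. Leaving out 1 array gave 6 to 14 calls, with 6 without siNC replicate 2, siRNF43 replicate 1 or siRNF43 replicate 2. In excision repair 2 rose and 2 fell of 28 tested. ERCC4, a nuclease that cuts beside bulky lesions and crosslinks, averaged 9.16 ± 0.03 on siRNF43 arrays and 8.28 ± 0.25 on siNC arrays (SD, n = 3 each) and rose 1.85-fold (limma adjusted p = 0.00109). NTHL1, a glycosylase for oxidised bases, rose 1.5-fold (limma adjusted p = 0.00365). XPC, which recognises bulky lesions, averaged 8.99 ± 0.16 on siRNF43 arrays and 9.73 ± 0.22 on siNC arrays and fell 1.66-fold (limma adjusted p = 0.00253), and TDG, a thymine glycosylase, fell 1.18-fold (0.0484).

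Among recombination and crosslink genes 1 rose and 2 fell of 23 tested, beside 11.5% of all tested genes called higher and 11.1% called lower. SWI5 fell 1.52-fold (limma adjusted p = 0.000632) and SFR1, with which it forms a complex that assists the recombinase, 1.22-fold (0.0353). RMI2, of the complex that dissolves crossed strands with BLM, rose 1.27-fold (0.0353). Of 23 checkpoint and signalling genes 3 rose and 0 fell. They were WEE1, the kinase that holds cells before mitosis, at 1.29-fold (limma adjusted p = 0.00851), MAD2L2, of translesion synthesis and end protection, at 1.24-fold (0.0163), and RAD1, of the clamp that activates ATR, at 1.15-fold (0.034). In mismatch repair 1 of 3 tested rose, MSH3, at 1.38-fold (0.0197). The 6 tested end joining genes of this list held 0 calls by limma. Of them, 1 had an unadjusted p under 0.05, beside 4128 of all 11853 tested genes.

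Cell cycle genes moved beside these. Of 16 S phase genes 10 rose and 0 fell, with a median difference of 0.34. Of 16 mitosis genes 6 rose and 0 fell, with a median of 0.22. Over all tested genes 11.5% were called higher and 11.1% lower, and the median was 0.0. Both lists were chosen with earlier results of these data known. By smallest p the risen S phase genes were led by CCNE2 (cyclin E2, 2.67-fold) and MCM7 (a replicative helicase subunit, 1.49-fold). The risen mitosis genes were led by TOP2A (a topoisomerase, 1.47-fold) and AURKA (a mitotic kinase, 1.36-fold). The part of these cell cycle genes in the rises of EXO1, RAD51AP1, BARD1, MSH6 and FANCL was not tested. Nor was the gap between the share of S phase genes and that of the repair members.

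**Figure D4:**
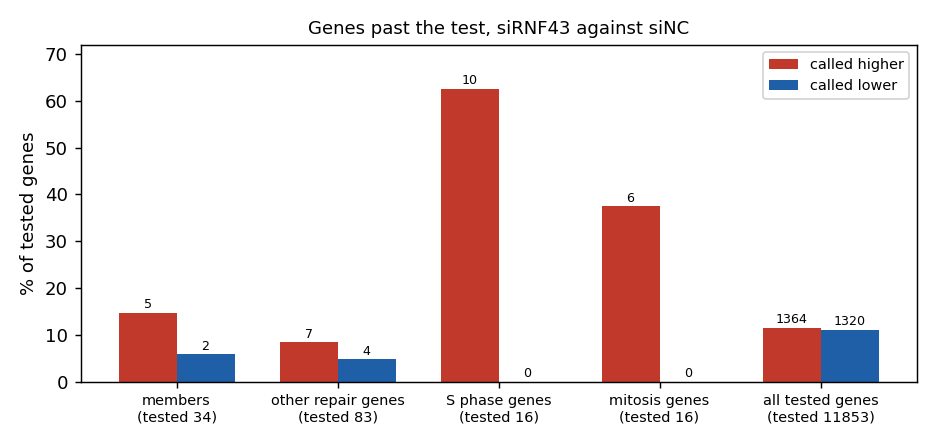
Percentage of tested genes called higher or lower on siRNF43 arrays in the member list, the other repair genes, the S phase and mitosis lists and all tested genes; numbers above the bars are gene counts. The members stand at 14.7% higher and 5.88% lower, all tested genes at 11.5% and 11.1%, and 62.5% of S phase genes were called higher.

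Promoter sequences of the 4 called members with the largest differences and a RefSeq entry are printed because RAD50 and ATM moved down while EXO1 and RAD51AP1 moved up. Each spans 300 bases around the first listed start of the gene, most of them before it, 5′ to 3′ on the gene's strand, build GRCh38.p14. Capitals mark 3 kinds of motif searched on both strands, E2F-like letters (TTTCCCGC, TTTGGCGC, TTTGCCGC or TTTCGCGC), TTTGAA, the cell cycle homology region, and CCAAT, the NF-Y box. No marked motif overlaps another in these windows.
RAD50, chr5:132556727-132557026, plus strand: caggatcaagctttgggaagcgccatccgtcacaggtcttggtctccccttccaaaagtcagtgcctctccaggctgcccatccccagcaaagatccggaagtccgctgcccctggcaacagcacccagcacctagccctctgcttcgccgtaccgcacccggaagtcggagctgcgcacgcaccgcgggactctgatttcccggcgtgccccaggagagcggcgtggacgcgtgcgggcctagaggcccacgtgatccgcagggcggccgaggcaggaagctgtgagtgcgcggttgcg
ATM, chr11:108222817-108223116, plus strand: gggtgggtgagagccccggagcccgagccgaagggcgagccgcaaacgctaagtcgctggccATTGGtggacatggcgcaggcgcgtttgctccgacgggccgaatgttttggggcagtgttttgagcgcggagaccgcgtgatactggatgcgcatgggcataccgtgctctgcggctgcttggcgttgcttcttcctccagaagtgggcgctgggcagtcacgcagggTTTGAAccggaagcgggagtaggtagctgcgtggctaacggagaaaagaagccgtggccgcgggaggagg
EXO1, chr1:241847954-241848253, plus strand: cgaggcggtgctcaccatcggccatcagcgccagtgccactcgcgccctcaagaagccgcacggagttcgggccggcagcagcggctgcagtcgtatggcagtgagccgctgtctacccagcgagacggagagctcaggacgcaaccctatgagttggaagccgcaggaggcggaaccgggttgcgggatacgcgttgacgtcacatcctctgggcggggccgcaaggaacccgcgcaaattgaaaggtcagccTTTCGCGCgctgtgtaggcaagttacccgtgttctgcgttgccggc
RAD51AP1, chr12:4538640-4538939, plus strand: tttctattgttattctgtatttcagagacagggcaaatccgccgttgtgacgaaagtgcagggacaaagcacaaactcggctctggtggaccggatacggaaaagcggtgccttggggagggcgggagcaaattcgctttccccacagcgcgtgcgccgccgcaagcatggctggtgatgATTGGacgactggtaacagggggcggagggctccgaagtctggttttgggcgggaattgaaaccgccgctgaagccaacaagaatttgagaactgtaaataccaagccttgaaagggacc

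The RAD50 window held 0 of these motifs. The ATM window held 1 TTTGAA and 1 CCAAT box, the EXO1 window 1 E2F-like motif right after the start, and the RAD51AP1 window 1 CCAAT box. An E2F-like motif stood in the windows of 7 of 29 members with an entry, or 24.1%, against 5.45% of tested genes with an entry and 3.33% of all 27305 genes in the table. Those 7 were EXO1 and MSH6, which rose, and CLSPN, FANCC, TOPBP1, XRCC2 and XRCC6, which did not pass. By call that is 2 of 5 risen members, 0 of 2 fallen members and 5 of 21 tested members that did not pass. CCAAT stood in 17 of 29 member windows (58.6%, against 37.0% of tested genes), and TTTGAA in 3 (10.3%, against 9.82%). A match describes letters in the window and is not a measured site.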

How the data were processed

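Values of 54613 probe sets on 6 arrays were used as deposited. They are log2 signals for which the authors used MAS5, per the submitters' processing notes, with no version or scaling target in the sources used here. Base 2 was inferred, since linear means after a 2% trim of both tails were 497.03 to 497.23 on all arrays, which had thus been scaled. Median log2 signals were 5.89 to 6.02, and 391 to 628 values per array sat at a floor of 0. Within a group at most 0.00186% of values above the floor were exactly equal on a pair of arrays. The number of arrays limits the precision, and detection calls and scan batches were not used here.

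Of the probe sets, 41091 named 1 gene, 1801 several and 11721 none here. Symbols were updated through gene identifiers to RefSeq (GRCh38.p14), which also gave the promoters, for 29 of the 35 measured members. Genes were read by their brightest probe set and tested if its mean was in the upper 50% of probe sets. Tests used limma 3.58.1 in R 4.3.3 (lmFit, eBayes with an intensity trend, two-sided, Benjamini-Hochberg, threshold 0.05), and the fit was tested on simulated data. With 50 genes changed at each size, it recovered 46% of log2 differences of 0.5, 82% of 1 and 96% of 2. A member that did not pass may thus still differ by such small amounts. The 17 alternatives changed normalization, scaling, added signal, filter, variance model, weights, probe sets, a replicate block, and arrays left out. Members, lists and alternatives were chosen with earlier results of these data known. Named genes are the measured members and ATRIP and PMS2, with array values for those that passed and for the member of each role with the smallest p among those that did not; array values of MRE11, BRCA1 and FANCI were added after they were seen. Of other repair genes up to 3 per direction and list are named, and 2 per cell cycle list.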

Additional observations from a re-analysis of the deposited data

How the results depend on the processing

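RAD50 and EXO1 passed in the same direction in all 17 alternatives. Of 568 member values under the alternatives, 494 kept their direction and side of the threshold, 24 lost a call and 21 gained one, and 29 changed sign, 27 of them for members that passed in neither setting. With 1 array left out, the count of genes called was 1739 to 2653 (2684 with all), the members called higher 1 to 5, those called lower 1 to 3, the median member difference 0.08 to 0.12, the other repair genes called 6 to 14 and the RNF43 difference 0.55 to 0.72. Members called higher numbered 9 with array weights, 2 without an intensity trend and 11 with the replicate block, where 1722, 1061 and 1979 of all tested genes were called higher, against 1364. With both arrays numbered 3 left out the RNF43 difference was 0.48 and did not pass, and 19 other repair genes were called. When probe sets were averaged per gene, 1587 genes and 1 fallen member were called. The median member difference, 0.09, became 0.12 with array weights or each array centred on its median, 0.15 without both arrays numbered 3, 0.07 with averaged probe sets, 0.14 with the upper 30% of probe sets and 0.18 without probe sets ending in _x_at or _s_at. The cause of these shifts was not tested.

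The replicate numbers were not treated as pairing the arrays. The correlations of deviations between same-numbered arrays were 0.16, 0.08 and 0.27 for numbers 1, 2 and 3. Each siRNF43 array correlated best with the siNC array of its own number. From the siNC side, array 2 correlated slightly better with siRNF43 array 1, at 0.09. The remaining correlations between arrays of unlike number lay from -0.21 to 0.03. No label states a pairing, so whether the arrays were paired cannot be told here. With the replicate block 3908 genes were called, against 2684 without it, and 24 other repair genes. Of the members, 11 were then called higher and 3 lower, against 5 and 2 without the block.

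Changed signs were as follows. When probe sets were averaged per gene, MSH6 had -0.37, ATM 0.39, XRCC6 -0.21, FANCF -0.15, BRCA1 -0.06, RAD51C 0.03 and TP53BP1 0.01. With array weights FANCF had -0.01 and FANCM 0.12. Without both arrays numbered 3, FANCM had 0.26, FANCF -0.14, MRE11 -0.01 and PALB2 0.00. With each array centred on its median FANCM had 0.03, and without probe sets ending in _x_at or _s_at FANCF had -0.32. With 1 array left out, values spanned 0 for BRCA1 (-0.06 to 0.14), FANCF (-0.18 to 0.20), FANCM (-0.12 to 0.16), BLM (-0.11 to 0.05), CHEK2 (-0.08 to 0.13) and PALB2 (-0.17 to 0.03), and MRE11 ranged from 0.00 to 0.08. XRCC3 was too dim to test.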

Other observations

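Of the 29 members with a promoter entry, 16 have a gene that starts within 1000 bases on the other strand and runs away from them, per the RefSeq table, and in 9 such pairs both genes were tested. ATM and NPAT, a gene of histone transcription, start 429 bases apart. NPAT averaged 9.80 on siRNF43 arrays and 9.66 on siNC arrays, a difference of 0.14 (SE 0.09, limma adjusted p = 0.315), beside -0.39 for ATM. Across the pairs 3 of 10 tested partners passed, beside 22.6% of all tested genes. DCTN5, 156 bases from PALB2, was higher by 0.44 (limma adjusted p = 0.00917), beside -0.08 for PALB2. DESI1, 252 bases from XRCC6, was lower by -0.40 (limma adjusted p = 0.0142), beside 0.20 for XRCC6. TMEM167A, 153 bases from XRCC4, was lower by -0.22 (limma adjusted p = 0.0306), beside -0.32 for XRCC4, which did not pass. The pairs were sought after the values of the members had been seen, and whether partners differ in response was not tested. RAD50 had no such neighbour in the table.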
